A study of Mus musculus with 4 samples.

Results

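The genes described here make, carry, break down and sense prostaglandins, and 9 were chosen by symbol: Pla2g4a, Ptgs1, Ptgs2, Ptges, Ptges2, Slco2a1, Ptgr1, Hpgd and Ptger4. All 9 were present among the 45777 genes of the files, and all 9 passed the filter on low counts that left 18115 genes tested. RNA sequencing was done on mouse gastric organoids, a culture of stomach lining cells. The group labelled Control comprised 2 libraries of organoids with Cdh1 (E-cadherin) and Trp53 (p53) knocked out. The group labelled Smad4 Knockout comprised 2 libraries with Cdh1, Trp53 and Smad4 knocked out, so the Cdh1 and Trp53 knockouts are shared by both groups. Each library was a separately named line, and neither the animals behind the lines, nor whether a line is 1 clone, nor the way the genes were knocked out is given in the sources used here. For that reason a p-value here reflects only how these 4 libraries spread, and the spread may be technical. All cultures were kept in advanced DMEM/F12 with medium conditioned by L-WRN cells and serum, and for the last 2 days serum and conditioned medium were left out and B27 and N2 supplements were given.

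Prostaglandins are short-lived lipids made from arachidonic acid. Phospholipase A2 (Pla2g4a) releases arachidonic acid from membranes, the cyclooxygenases (Ptgs1 and Ptgs2, also called COX-1 and COX-2) convert it to prostaglandin H2, and terminal synthases such as Ptges turn that into prostaglandin E2. Prostaglandin E2 leaves the cell, acts on receptors such as EP4 (Ptger4), is taken up again by a transporter (Slco2a1) and is inactivated by a dehydrogenase (Hpgd) and a reductase (Ptgr1). In the stomach, prostaglandins maintain mucus and bicarbonate secretion and protect the lining, which is why drugs that block cyclooxygenases can cause ulcers.

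The total count per library ranged from 85649781 to 99845702, and a count of 0 in a library allows up to 3 counts. Levels are given as CPM, the usual depth-scaled count with TMM factors, for one gene between libraries, and as the deposited TPM, which is per transcript length, between genes. Smad4 was at 94.5 and 103 CPM in Control 1 and 2, and at 54.4 and 52.9 CPM in Smad4 Knockout 1 and 2 (log2 fold change -0.88, SE 0.10, edgeR adjusted p = 0.677, DESeq2 adjusted p = 4.8e-08), so transcript was still counted in both knockouts. Cdh1 (30.7 and 26.02 against 30.6 and 44.1 CPM) and Trp53 (4.87 and 6.98 against 5.43 and 4.69 CPM) overlapped between the groups. The 14 markers of stomach epithelium summed to 9057 and 8671 TPM in the controls and to 9461 and 9201 TPM in the knockouts. Of these, Epcam (678 to 827 TPM), Krt8 (3004 to 3294 TPM) and Sox2 (19.2 to 24.4 TPM) were present in every library, while the mucins Muc5ac and Muc6 of mature stomach cells stayed under 1 TPM. By CPM 3 of the 14, the mucous cell genes Tff1, Tff2 and Gkn1, were higher in both knockouts, and 2, Sox2 and Muc6, were lower, where 18.2% of all tested genes were higher and 18.6% lower. Tff1 was at 80.3 and 55.5 against 113 and 204 TPM, and Tff2 at 48.7 and 37.4 against 113 and 65.03 TPM. Gkn1 was at 3.75 and 3.45 against 8.2 and 26.03 TPM, while Muc5ac, Gkn2 and Gkn3 overlapped between the groups. Markers of other cells that can carry prostaglandin enzymes were mostly under 1 TPM, and the highest were Kit, Dclk1, Avil and Cd68. The 5 endothelial markers summed to 1.63 and 1.63 TPM in the controls and to 1.46 and 1.05 TPM in the knockouts. By CPM 1 of these 5, Kdr, was lower in both knockouts, where 18.6% of all tested genes were. The 4 smooth muscle markers summed to 0.683 and 0.958 TPM in the controls and to 0.535 and 1.21 TPM in the knockouts. The summed level of 8 fibroblast markers was 0.655 and 1.04 TPM in the controls and 0.552 and 0.291 TPM in the knockouts, with Lum and Pdgfrb at 0. By CPM 3 of these 8 (Col1a1, Col3a1 and Pdgfra) were lower in both knockouts and 1 (Dcn) was higher, against the same 18.6% and 18.2%. Those shares cover only genes that passed the filter, while 2 of the 8 markers were at 0 in every library and could not separate. The summed level of 9 immune markers was 4.68 to 5.39 TPM, nearly all from Cd68 (4.3 to 5.09 TPM), and Cd3e and Tyrobp were at 0. Of 5 mast cell markers only Kit was above 0 (22.05 to 34.2 TPM). The 9 tuft cell markers summed to 11.8 and 9.96 TPM in the controls and 13.9 and 12.9 TPM in the knockouts, most of it Dclk1 and Avil, with Trpm5, Gfi1b, Il25 and Alox5 at 0. By CPM 2 of these 9, Dclk1 and Hpgds, were higher in both knockouts, where 18.2% of all tested genes were. The 2 figures are not on like terms, because 4 of the 9 markers were at 0 in every library and could not separate. Hpgds, besides, passed the filter on low counts only through the knockouts.

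The start regions of 4 members are shown because the control and knockout libraries of these 4 genes did not overlap, and they let a reader see which known regulatory letters lie there. They come from RefSeq on GRCm38.p6 (mm10), run from 250 bases before to 50 bases after a RefSeq start, and are written 5′ to 3′ on the strand of the gene. For Ptgs1, Ptgr1 and Slco2a1 that start lies inside the outermost span of the gene, so other starts are not shown. In Ptgs2 (chr1:150099781-150100080, plus strand) capitals mark the letters CAGAC, which SMAD proteins are known to bind, and the joined CRE half-site (CGTCA) and E-box (CACGTG), which share 2 letters. A GC box in that window is left in lower case. In Ptgs1 (chr2:36230176-36230475, plus strand) capitals mark CAGAC read on the opposite strand. In Ptgr1 (chr4:58987029-58987328, minus strand) capitals mark GC boxes (GGGCGG, read on the opposite strand), and in Slco2a1 (chr9:103008237-103008536, plus strand) they mark a TATA box (TATAAA) and a GC box.
Ptgs2: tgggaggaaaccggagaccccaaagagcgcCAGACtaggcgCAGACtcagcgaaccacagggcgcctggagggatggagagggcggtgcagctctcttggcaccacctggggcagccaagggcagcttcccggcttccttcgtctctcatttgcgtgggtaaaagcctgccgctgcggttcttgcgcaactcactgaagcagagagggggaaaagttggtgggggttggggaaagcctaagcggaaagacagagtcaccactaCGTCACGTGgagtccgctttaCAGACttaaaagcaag
Ptgs1: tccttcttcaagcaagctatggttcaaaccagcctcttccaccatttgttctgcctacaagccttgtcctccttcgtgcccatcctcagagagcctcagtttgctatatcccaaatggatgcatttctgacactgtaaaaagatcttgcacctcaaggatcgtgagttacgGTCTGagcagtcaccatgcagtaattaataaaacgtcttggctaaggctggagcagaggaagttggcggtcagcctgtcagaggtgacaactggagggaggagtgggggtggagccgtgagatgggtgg
Ptgr1: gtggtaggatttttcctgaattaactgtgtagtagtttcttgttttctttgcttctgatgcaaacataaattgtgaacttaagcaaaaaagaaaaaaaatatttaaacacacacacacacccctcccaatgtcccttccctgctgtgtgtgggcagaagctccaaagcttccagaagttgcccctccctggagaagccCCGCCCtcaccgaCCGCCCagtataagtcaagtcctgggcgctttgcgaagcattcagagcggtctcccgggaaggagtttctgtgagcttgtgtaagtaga
Slco2a1: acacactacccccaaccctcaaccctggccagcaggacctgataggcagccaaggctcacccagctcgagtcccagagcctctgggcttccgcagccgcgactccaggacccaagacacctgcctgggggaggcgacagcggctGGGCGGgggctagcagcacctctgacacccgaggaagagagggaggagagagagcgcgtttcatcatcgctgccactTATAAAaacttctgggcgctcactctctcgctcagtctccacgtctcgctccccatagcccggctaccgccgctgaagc

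The windows of the 2 cyclooxygenase genes differed in these letters. The Ptgs2 window held CAGAC at 220 and 209 bases before the start and at 34 bases after it, and its CRE half-site and E-box began 13 and 16 bases after the start. The Ptgs1 window held CAGAC once, 79 bases before the start, and neither a CRE half-site nor an E-box. Searched on both strands, CAGAC occurred in a start window of 7 of the 9 members and in 49.6% of all 32851 windows of the RefSeq table, so it is common. The CRE half-site occurred in 1 member, Ptgs2, and in 20.8% of all windows, and the E-box in 2 members, Ptgs2 and Ptges2, and in 7.2% of windows. The TATA box occurred in 3 members, including Slco2a1 at 29 bases before the start, and in 13.6% of windows. The GC box occurred in 6 members and in 35.7% of windows. The antioxidant response element (TGACNNNGC) occurred in 0 members and in 12.4% of windows. Pla2g4a has windows at 2 starts and counts as holding a motif if either does. A match is only a match of letters in these windows. The starts, that of Ptgs2 included, are those of RefSeq, and the starts used in these organoids were not measured.

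Ptgs2 was by far the most abundant of the 9 genes in each library. Its level was 277 and 263 TPM in Control 1 and 2 and 228 and 132 TPM in Smad4 Knockout 1 and 2, and by mean level it ranked 525 of all 45777 genes. Pla2g4a (58.5 to 64.5 TPM), Ptgr1 (30.8 to 68.2 TPM) and Ptgs1 (36.3 to 47.7 TPM) followed, and the ranges of Pla2g4a and Ptgr1, and of Ptgr1 and Ptgs1, overlapped. Ptges2 (18.6 to 21.3 TPM), Ptger4 (6.78 to 10.1 TPM) and Ptges (5.05 to 7.72 TPM) came next, and the ranges of Ptger4 and Ptges overlapped. Slco2a1 (0.115 to 0.416 TPM) and Hpgd (0 to 0.503 TPM) were close to the limit of detection and overlapped each other. Transcript was counted for each step from membrane lipid to prostaglandin E2 and for its EP4 receptor, and the genes of reuptake and first oxidation were the least abundant. Divided by the length of the longest annotated transcript in place of the deposited TPM, Ptgs1 came before Ptgr1 and Ptger4 before Ptges2, and the other places in the order were as given. The mean of Ptges2 was then 8.84 in the controls and 9.37 in the knockouts.

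**Figure D1:**
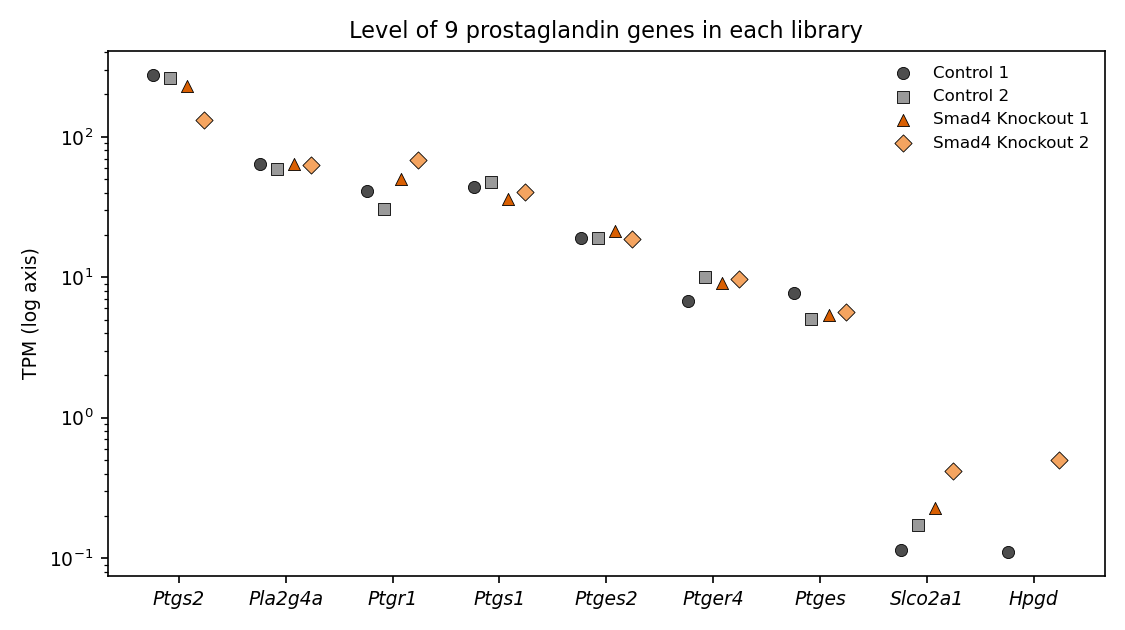
TPM of the 9 prostaglandin genes in each of the 4 libraries, on a log axis, ordered by mean level; each point is 1 library, and the 0 values of Hpgd in Control 2 and Smad4 Knockout 1 are not drawn. Ptgs2 lies highest in every library, at 132 to 277 TPM, and Slco2a1 and Hpgd lie below 1 TPM.

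The comparison of Smad4 Knockout with Control asks which of these genes differ when Smad4 is knocked out as well, a protein that joins receptor-activated SMADs in TGF-beta and BMP signalling. None of the 9 passed edgeR's quasi-likelihood test at an adjusted p of 0.05, where 0% of all 18115 genes passed. The targeted gene Smad4 did not pass it either (edgeR adjusted p = 0.677), so not passing does not show that a gene was unchanged. Both knockouts had less Ptgs2 and Ptgs1 than either control, which makes 2 of 9 members, against 18.6% of all tested genes. Both had more Ptgr1 and Slco2a1 than either control, again 2 of 9, against 18.2% of all tested genes. At an unadjusted edgeR p under 0.05 were Ptgs2 on the lower side (3.04% of tested genes) and Ptgr1 and Slco2a1 on the higher side (3.33% of tested genes). DESeq2 called 0 of the 9 and 0.724% of the 18375 genes to which it gave an adjusted p, and the same 3 members had an unadjusted DESeq2 p under 0.05, which 3.53% of those genes had on the higher side and 2.98% on the lower side. The median log2 fold change over the 9 members was 0.03, against 0.00 over all tested genes, and 6 members lay above 0 and 3 below.

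Pla2g4a encodes cytosolic phospholipase A2, which supplies the arachidonic acid. It was at 118 and 100.4 CPM in Control 1 and 2, and at 108 and 112 CPM in Smad4 Knockout 1 and 2. Both knockouts lay between the controls, and the log2 fold change was 0.01 (SE 0.12, edgeR adjusted p = 0.996). Pla2g4a lies at chr1:149829618-149961290, on the same chromosome as Ptgs2 and 139 kb before its start.

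Ptgs2, the inducible cyclooxygenase (gene ID 19225, chr1:150100031-150108234), was at 794 and 704 CPM in Control 1 and 2, and at 596 and 371 CPM in Smad4 Knockout 1 and 2. Both knockouts were below both controls, Smad4 Knockout 1 at 79.5% and Smad4 Knockout 2 at 49.5% of the control mean. The mean of the controls was 749 ± 63.7 CPM (SD, n = 2), and that of the knockouts 483 ± 159 CPM (SD, n = 2). The log2 fold change was -0.63 (SE 0.22, edgeR adjusted p = 0.734, and DESeq2 adjusted p = 0.143), so the difference did not pass the test. The libraries of one genotype also differed, by 0.17 on the log2 scale between the controls and by 0.68 between the knockouts, while the nearest control and knockout differed by 0.24. Without Smad4 Knockout 2 the log2 fold change was -0.32, and without Smad4 Knockout 1 it was -1.01 (edgeR adjusted p = 0.0719). The 8 fibroblast markers, also lowest in sum in Smad4 Knockout 2, reached at most 1.04 TPM. Of the mucous cell genes higher in both knockouts, Tff1 and Gkn1 were highest in Smad4 Knockout 2. Tff2 went the other way, at 113 TPM in Smad4 Knockout 1 and 65.03 TPM in Smad4 Knockout 2. The part of these markers in the Ptgs2 value was not tested. In bulk libraries, fewer cells with the transcript and less transcript per cell cannot be told apart.

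Ptgs1, the cyclooxygenase that most tissues express at a steady level (gene ID 19224, chr2:36216742-36258593), was at 88.2 and 91.1 CPM in Control 1 and 2, and at 83.2 and 81.6 CPM in Smad4 Knockout 1 and 2. Both knockouts were lower, but by a small amount, and the log2 fold change was -0.12 (SE 0.10, edgeR adjusted p = 0.918). Per transcript length, Ptgs2 was 6.26 and 5.51 times as abundant as Ptgs1 in the controls and 6.29 and 3.25 times in the knockouts. The length that the deposited values imply for Ptgs1 was 4216 bases in Smad4 Knockout 1 and 3317 to 3466 bases in the other libraries. This lowers the Ptgs1 TPM and raises the ratio in Smad4 Knockout 1. By CPM, which does not use length, Smad4 Knockout 1 and 2 were at 79.5% and 49.5% of the control mean for Ptgs2. For Ptgs1 they were at 92.8% and 90.9%. By CPM, then, Ptgs2 was lower relative to Ptgs1 in both knockouts than in the control mean. By TPM the ratio in Smad4 Knockout 1 was not below that of either control. The controls differed too: from Control 1 to Control 2, Ptgs2 changed by -0.17 and Ptgs1 by 0.05 on the log2 scale. The ratio was not tested.

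**Figure D2:**
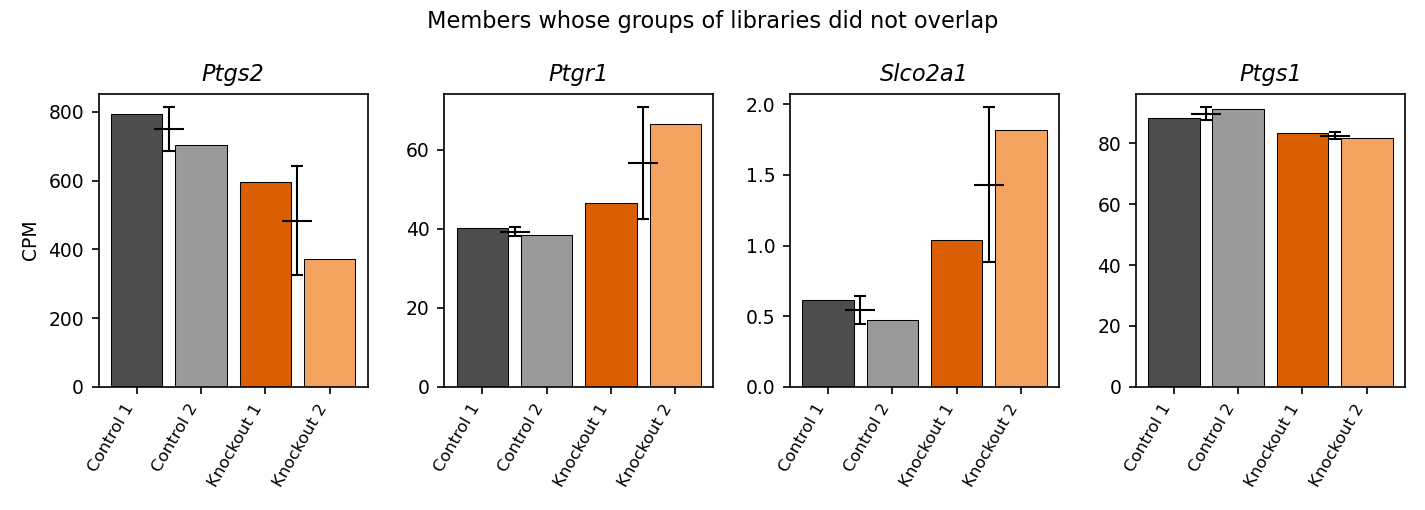
CPM of the 4 members whose control and knockout libraries did not overlap; each bar is 1 library and starts at 0, and the black line between 2 bars is the group mean with its SD. For Ptgs2, Ptgr1 and Slco2a1 Smad4 Knockout 2 lies farther from the controls than Smad4 Knockout 1, and for Ptgs1 all 4 libraries lie within 81.6 to 91.1 CPM.

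The terminal prostaglandin E synthases showed no separation of the groups. Ptges, the membrane-bound synthase that is often induced together with Ptgs2 (chr2:30889471-30931020), was at 18.1 and 11.1 CPM in Control 1 and 2, and at 11.5 and 13.04 CPM in Smad4 Knockout 1 and 2. Control 1 was the highest library, and the others lay close together. The log2 fold change was -0.25 (SE 0.25, edgeR adjusted p = 0.957), and without Control 1 it was 0.15. Ptges2, a second membrane-associated synthase (chr2:32395890-32402740), was at 23.8 and 22.2 CPM against 24.3 and 22.9 CPM. Its 4 libraries spanned 0.13 on the log2 scale, less than the median gene with a mean of at least 5 CPM, which spanned 0.30. Its log2 fold change was 0.03 (SE 0.12, edgeR adjusted p = 0.995).

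Slco2a1, the prostaglandin transporter that takes prostaglandins into cells (gene ID 24059, chr9:103007061-103096002), had 60 and 44 counts in the controls and 90 and 176 counts in the knockouts. This is 0.613 and 0.475 CPM against 1.04 and 1.82 CPM, so both knockouts were above both controls. The log2 fold change was 1.39 (SE 0.45, edgeR adjusted p = 0.694), and the difference did not pass the test. Without Smad4 Knockout 2 the log2 fold change was 0.95. The level stayed below 0.5 TPM in all 4 libraries, and the length implied by the deposited values was 5022 bases in Control 2 and 7488 to 8871 bases in the others.

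Ptgr1, a reductase that acts on prostaglandin and leukotriene metabolites (gene ID 67103, chr4:58965590-58987131), was at 40.1 and 38.5 CPM in Control 1 and 2, and at 46.6 and 66.6 CPM in Smad4 Knockout 1 and 2. The controls were close together, with a mean of 39.3 ± 1.11 CPM (SD, n = 2), and the knockouts were higher and farther apart, with a mean of 56.6 ± 14.1 CPM (SD, n = 2). Smad4 Knockout 1 was at 119% and Smad4 Knockout 2 at 169% of the control mean. The log2 fold change was 0.53 (SE 0.18, edgeR adjusted p = 0.718, and DESeq2 adjusted p = 0.3), which did not pass. Leaving out Smad4 Knockout 2 gave 0.26, and leaving out Smad4 Knockout 1 gave 0.76. On the deposited TPM Ptgr1 was at 41.4 and 30.8 in the controls and at 49.8 and 68.2 in the knockouts, and the wider gap between the controls there goes with an implied length of 2266 bases in Control 2 against 1610 to 1722 bases elsewhere. Ptgs2 was 6.69 and 8.52 times as abundant as Ptgr1 in the controls and 4.59 and 1.94 times in the knockouts, per transcript length.

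Hpgd, the dehydrogenase that carries out the first step of prostaglandin inactivation (gene ID 15446, chr8:56294552-56321046), was almost absent. It had 12 and 0 counts in the controls and 0 and 53 counts in the knockouts. In each genotype 1 library held counts and the other held none, so the fitted log2 fold change of 2.13 had an SE of 2.28 (edgeR adjusted p = 0.961) and gives no size for a difference.

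Ptger4, which encodes the EP4 receptor (gene ID 19219, chr15:5233399-5244187), was at 14.4 and 20.02 CPM in Control 1 and 2, and at 17.4 and 20.1 CPM in Smad4 Knockout 1 and 2. Control 1 was the lowest library and Smad4 Knockout 2 the highest, the groups overlapped, and the log2 fold change was 0.13 (SE 0.20, edgeR adjusted p = 0.983). It was -0.09 without Control 1. EP4 was the only prostaglandin receptor with more than trace counts. Among the other 8 prostanoid receptor genes, Ptger2, Ptgdr and Ptgdr2 had 0 counts in all libraries, and Ptger1, Ptger3, Ptgfr, Ptgir and Tbxa2r stayed at or below 0.217 CPM.

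**Figure D3:**
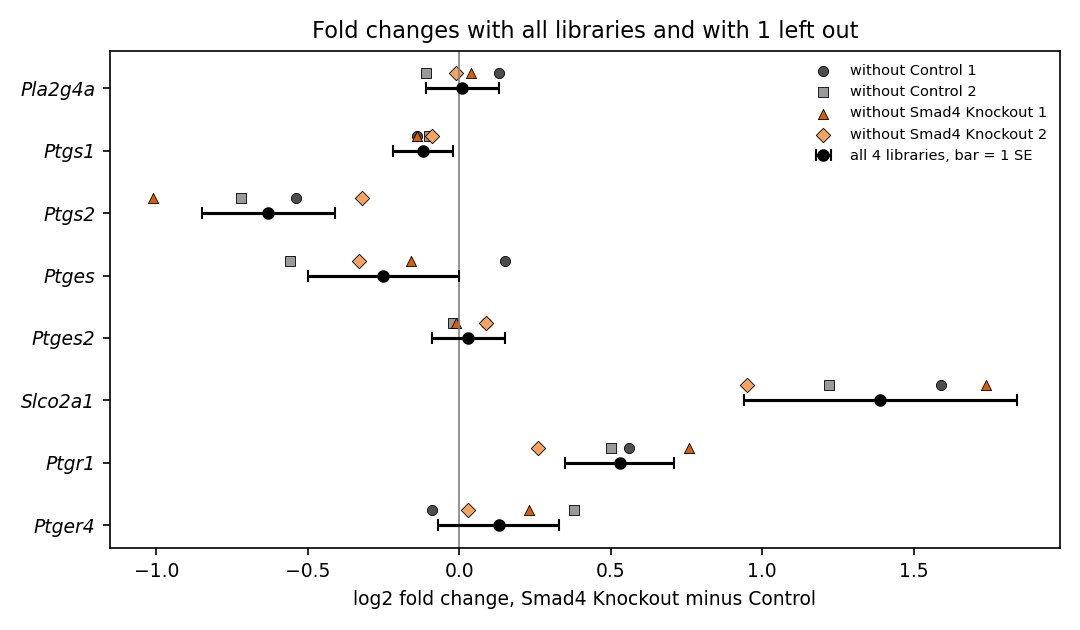
Log2 fold change (Smad4 Knockout minus Control) of 8 members; black points are the fit of all 4 libraries with bars of 1 SE, and coloured points leave out 1 library. Ptges, Ptges2, Ptger4 and Pla2g4a cross 0 when a library is left out. Ptgs2, Ptgs1, Ptgr1 and Slco2a1 keep their sign, which groups that do not overlap must do. Hpgd is not drawn because its SE was 2.28.

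The 2 long noncoding RNA genes beside Ptgs2 were looked at after the member values were known. The nearer edge of the annotated Ptgs2os span lies 157 bases before the Ptgs2 start, with no annotated overlap. This gives no direction of transcription, and the strand setting of the counting is not known here. Ptgs2os was at 5.08 and 4.05 CPM in Control 1 and 2, and at 3.62 and 2.82 CPM in Smad4 Knockout 1 and 2 (log2 fold change -0.50, SE 0.25, edgeR adjusted p = 0.832). Its libraries stood in the same order as those of Ptgs2, with Smad4 Knockout 1 at 79.3% and Smad4 Knockout 2 at 61.7% of the control mean. Both knockouts were below both controls, as were those of 18.6% of all tested genes, and the Ptgs2os difference did not pass either. The span of Ptgs2os2 lies 50.8 kb beyond the end of Ptgs2. Ptgs2os2 had 50 and 9 counts in Control 1 and 2 against 18 and 30 in Smad4 Knockout 1 and 2, and its groups overlapped.

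**Figure D4:**
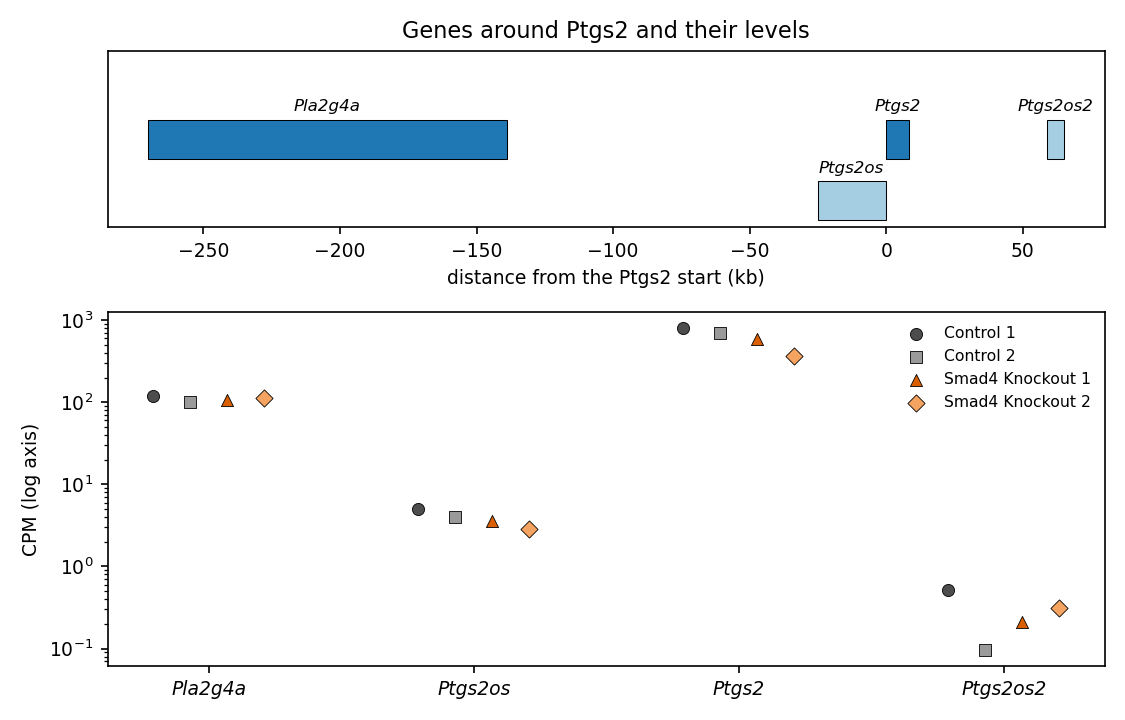
Top, the position of Pla2g4a, Ptgs2os, Ptgs2 and Ptgs2os2 in kb from the Ptgs2 start; bottom, their CPM in each library on a log axis. Ptgs2 and Ptgs2os step down from Control 1 to Smad4 Knockout 2 in the same library order, and Pla2g4a stays between 100.4 and 118 CPM.

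The wider list of prostanoid and eicosanoid genes held 50 genes, of which 29 were tested and 10 had 0 counts in all libraries. In edgeR 0 of the 29 passed in either direction, 15 had a log2 fold change above 0 and 14 below, and the median was 0.02. Of these genes 4 were higher and 4 lower in both knockouts, compared with 18.2% and 18.6% of all tested genes. The higher ones include Hpgds, which passed the filter on low counts only through the knockouts. Among the terminal synthases, Akr1b3, an aldo-keto reductase with prostaglandin F synthase activity, was at 401 and 359.8 CPM in Control 1 and 2, and at 284 and 192 CPM in Smad4 Knockout 1 and 2 (log2 fold change -0.67, SE 0.19). Its libraries stood in the order seen for Ptgs2, and it was called by DESeq2 (adjusted p = 0.0423) but not by edgeR (adjusted p = 0.677). Ptges3, the cytosolic prostaglandin E synthase and HSP90 partner p23, was at 309 to 349 TPM, and its groups overlapped. Ptgds, a prostaglandin D synthase named outside the rule for naming genes, was at 10.5 and 19.3 against 14.2 and 6.24 TPM. Its groups also overlapped (log2 fold change -0.58, SE 0.39). Hpgds, the prostaglandin D synthase of mast and tuft cells, had 0 counts in both controls and 17 in each knockout (edgeR adjusted p = 0.677). It was singled out after its values were seen. Because it passed the filter only through the knockouts, its being higher there and its p-value are no support for a difference. Of the mast and tuft cell markers given above, Dclk1 was also higher in both knockouts, at 4.64 and 6.11 against 6.68 and 7.74 TPM, Kit and Avil (3.83 to 6.57 TPM) overlapped, and their part in the Hpgds value was not tested.

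The other abundant genes of the list differed little between the groups. Acsl4, which activates arachidonic acid, was at 75.7 to 106 TPM, Abcc4, an exporter of prostaglandins, at 48.7 to 67.6 TPM, Cbr1, a carbonyl reductase, at 53.6 to 66.9 TPM, and Lta4h, the leukotriene A4 hydrolase, at 58.9 to 62.3 TPM. The groups overlapped for each of these 4, and also for Lpcat3 and Ptgr2. Among the 10 tested genes of phospholipases and arachidonate handling, 2 were higher and 2 lower in both knockouts, against 18.2% and 18.6% of all tested genes. Pla2g10, which is secreted, was at 2.64 and 3.01 against 3.51 and 4.32 CPM, Pla2g7, which cleaves platelet-activating factor, at 1.18 and 1.07 against 1.6 and 1.76 CPM, and Pla2g6, which does not need calcium, at 22.8 and 32.8 against 22.3 and 20.6 CPM. The fourth, Pla2g12a, was at 16.3 and 14.8 against 12.8 and 13.4 CPM and is named outside the rule for naming genes. None of these 4 passed (edgeR adjusted p = 0.837, 0.843, 0.838 and 0.849). Alox5, the entry to the leukotriene branch, had 0 counts in all libraries.

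EP4 signals through Gs, adenylyl cyclase and protein kinase A, and the 21 genes listed for that route also held 0 that passed in edgeR among the 20 tested. Their median log2 fold change was -0.08, and 4 were higher and 6 lower in both knockouts, against 18.2% and 18.6% of all tested genes. Gnas, the Gs alpha subunit, was the most abundant at 332 to 378 TPM, followed by Prkar1a, a regulatory subunit of protein kinase A, with a mean of 80.2 TPM. Arrb1, an arrestin that turns receptors off, was at 17.6 and 17.3 CPM in Control 1 and 2, and at 21.8 and 23.3 CPM in Smad4 Knockout 1 and 2 (log2 fold change 0.37, SE 0.13, edgeR adjusted p = 0.712). Crem, a transcription factor of the cAMP response, was at 8.46 and 9.59 against 10.8 and 12.9 CPM (log2 fold change 0.39, SE 0.18). Pde3b, a phosphodiesterase that degrades cAMP, was at 28.1 and 26.3 against 23.5 and 19.8 CPM (-0.33, SE 0.14), and Adcy3, an adenylyl cyclase, at 14.8 and 20.2 against 14.7 and 12.6 CPM (-0.36, SE 0.20). None of these differences passed, and Adcy6, Prkaca, Prkacb, Prkar2a, Prkar2b and Creb1, the other abundant genes, had log2 fold changes between -0.14 and 0.19.

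**Figure D5:**
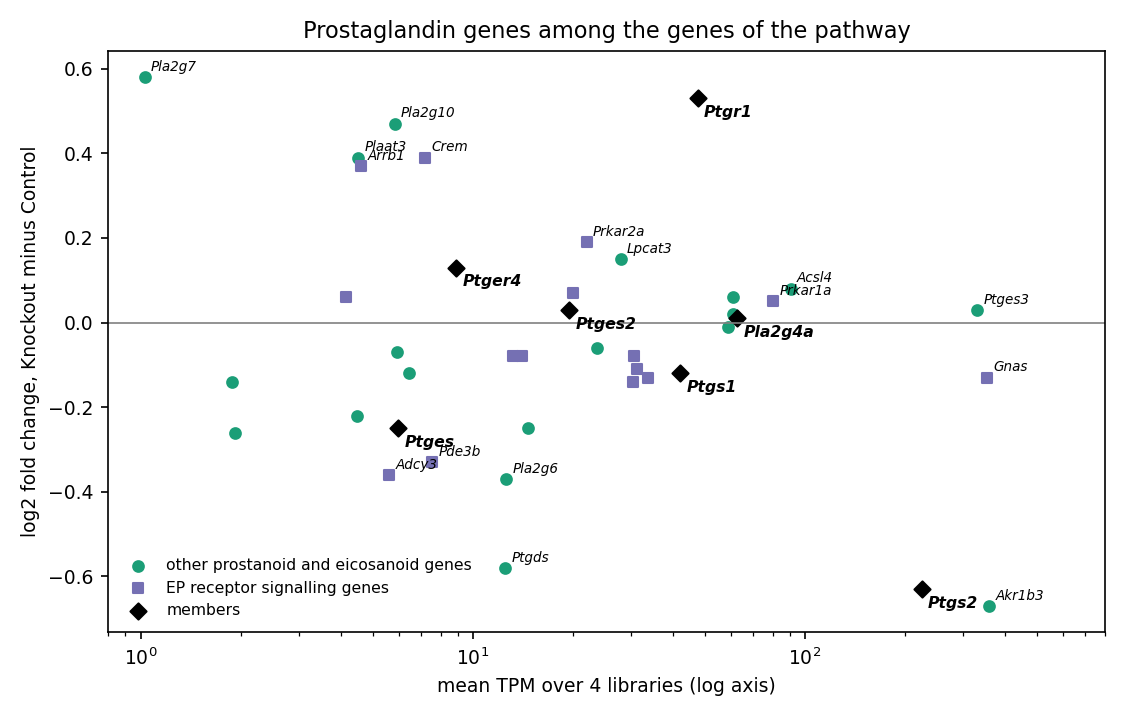
Log2 fold change against mean TPM (log axis) for the members and for the listed pathway genes that were tested and had a mean of at least 1 TPM; each point is 1 gene. Ptgs2 and Akr1b3 are the abundant genes farthest below 0, at -0.63 and -0.67, and Ptgr1 is the abundant gene farthest above it, at 0.53.

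Among members with a mean of at least 5 CPM, Ptgs2 had the widest range over the 4 libraries, 1.10 on the log2 scale. Of the 10804 genes with that mean, those whose centred log2 CPM lay nearest to it were Marchf9, Rusc2 and Mcam, with root mean square distances of 0.019, 0.025 and 0.033 on the log2 scale over 4 libraries. Mcam, a cell adhesion molecule, was at 13.9 and 12.9 CPM in Control 1 and 2, and at 10.2 and 6.45 CPM in Smad4 Knockout 1 and 2. With 4 points per gene, near matches among 10804 genes are easily found.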

How the data were processed

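Total RNA was sequenced from 4 libraries made with a stranded kit that removes ribosomal RNA, per the labels' protocols. StringTie 2.1.3b, HISAT2 2.1.0, Trimmomatic, bcl2fastq 2.20.0 and the mm10 build appear in the submitters' processing notes. The counting step and its strand setting were not given in the sources used here. Each deposited table holds TPM, FPKM and read counts by gene, per the file headers. The deposited whole-number counts were treated as estimated counts, since how they were made is not given. The deposited FPKM served only to derive the transcript length implied by count and FPKM, and the deposited TPM to compare genes. The columns of Control 2 carry that title with a 2 added, and whether they are a repeat run is not known here. A total of 1 further column of per-sample values was not used, and 26 symbols given as dates were restored from the gene ID.

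Counts were tested with edgeR 4.0.16 in R 4.3.3 (TMM, filterByExpr with its minimum count of 10, quasi-likelihood F-test, genotype as only term, Benjamini-Hochberg adjustment over 18115 genes, threshold 0.05). The SE is the log2 fold change divided by the square root of F. Alternatives were RLE and upper quartile factors, no filter, DESeq2 1.42.0, limma 3.58.1 with trend on log2(TPM + 1) or log2(TPM + 0.1) for genes with at least 1 TPM in at least 2 libraries, no such filter, removal of histone, ribosomal protein and mitochondrial genes, and omission of each library in turn. An exact permutation test of 2 against 2 libraries cannot go below p = 0.333. The scripts were tested on simulated data. The 9 members were all named, with pathway genes of a mean of at least 20 TPM and the 8 with the smallest p among those of at least 1 TPM whose groups do not overlap. The members, lists and tests were chosen with earlier results of these data known. Coordinates and start windows are RefSeq's for GRCm38.p6, and all 9 members matched.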

Additional observations from a re-analysis of the deposited data

How the results depend on the processing

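No member passed the threshold in edgeR under any of the settings, nor in DESeq2 or limma, and 97 of the 103 alternative fold changes had the sign of the value given. The 6 that changed sign all came from leaving out a library and all belonged to members whose groups overlapped: Ptges at 0.15 and Ptger4 at -0.09 without Control 1, Ptges2 at -0.02 without Control 2 and -0.01 without Smad4 Knockout 1, and Pla2g4a at -0.11 without Control 2 and -0.01 without Smad4 Knockout 2. Over the libraries left out, Ptgs2 ranged from -1.01 to -0.32, Ptgr1 from 0.26 to 0.76, Slco2a1 from 0.95 to 1.74, Ptgs1 from -0.14 to -0.09, Ptges from -0.56 to 0.15, Ptges2 from -0.02 to 0.09, Ptger4 from -0.09 to 0.38, Pla2g4a from -0.11 to 0.13 and Hpgd from 1.15 to 7.66. A lone library of a group is there assumed to vary like the other group. Leaving out 1 library cannot turn the sign where the groups do not overlap, so a kept sign there is no further support. Over the other settings Ptgs2 stayed between -0.63 and -0.62 with adjusted p from 0.143 to 0.862, and Ptgs1 and Ptgr1 reached -0.26 and 0.70 on deposited TPM, and Slco2a1 went down to 0.21 on log2(TPM + 1), where low genes are compressed. Slco2a1 and Hpgd have no value in the filtered TPM tests, because they did not reach 1 TPM, and Hpgd has none without Smad4 Knockout 2. The number of genes called among all tested was 0 in edgeR and limma, 133 in DESeq2, and 0 to 92 in edgeR over the libraries left out, with 92 without Smad4 Knockout 1 and 1 without Control 1; the cause was not tested. No paired analysis was possible because the labels give no replicate numbers shared by the groups. By counts per kilobase of the longest transcript 6 of 18 group means moved by more than the SD: Ptgs1 to 59.8 and 56.8, Ptges2 to 8.84 and 9.37, Ptgs2 in the controls to 321 and Ptges in the knockouts to 6.63. Depth limits Hpgd and Slco2a1, which had at most 53 and 176 counts.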
